A study of Drosophila melanogaster with 4 samples.

Results

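The genes described here make, store and move fat in Drosophila melanogaster. They are the fatty acid and triglyceride synthesis genes FASN1, ACC, ATPCL, AcCoAS, SREBP, Desat1 and mdy, the lipid droplet genes Lsd-1 and Lsd-2, and the lipid transport gene apolpp. Members were all probe sets whose array annotation names exactly 1 of these genes. That gave 13 of the 13966 probe sets on the array and 10 of its 10844 named genes, with a pair of probe sets each for ACC, mdy and apolpp.

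RNA came from whole adult females of the y,w laboratory strain (Y/W in the sample titles), which has a yellow body and white eyes. In both groups the flies were raised with yeast, moved to food without yeast as they emerged and kept on it for 5 days, which the labels give as a way to lower their own juvenile hormone. The treated group received 0.1 µl of acetone carrying 187 mM juvenile hormone III (JH III), a sesquiterpenoid insect hormone, on the body surface, which amounts to 18.7 nmol per fly, and the control group received the same volume of acetone alone. Flies were frozen 12 hours later, and each group had 2 RNA samples, each from a pool of 30 females, hybridised to separate Affymetrix DrosGenome1 arrays. With only 2 arrays in a group, their number limits how precise any value can be.

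In the insect fat body, the counterpart of liver and adipose tissue, ATPCL and AcCoAS supply acetyl-CoA, ACC turns it into malonyl-CoA and FASN1 builds fatty acids from it. Desat1 adds a double bond, and mdy joins the last fatty acid to diacylglycerol to make triglyceride, which is kept in droplets coated with the perilipins Lsd-1 and Lsd-2. SREBP is the transcription factor that drives many lipid synthesis genes, and in flies its processing responds to phosphatidylethanolamine rather than to sterols. Apolpp is the precursor of the apolipophorins, the proteins of the particle that carries lipid through the blood of insects.

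The arrays were not alike in quality measures. The ratio of 3' to 5' control signal for GAPDH was 15.5 and 10.2 in acetone replicates 1 and 2 and 2.32 and 5.75 in JH III replicates 1 and 2. For eIF-4a it was 75 and 46.8 in acetone and 18.3 and 18.9 with JH III, so that both ratios separated the groups. JH III replicate 1 stood apart, with a mean correlation of 0.734 with the other arrays over tested probe sets against 0.81 to 0.817 for the others. Acetone replicate 1 came from a chip lot of its own, and the other arrays shared a lot. A control level, set for each array at percentile 95 of its 23 controls without spiked target, was 139 and 295 in the acetone arrays and 369 and 240 in the JH III arrays. Transcripts of the yolk proteins Yp1, Yp2 and Yp3, which adult females make, had signals between 9745 and 42126, and 4 of the 10 measured markers of the male reproductive tract were at or under the control level on every array. Of those 10 markers, 1 exceeded it on every array, and their summed signal was 1738 and 2300 in acetone and 3844 and 2359 with JH III.

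No lipid synthesis, droplet or transport gene passed the test over all genes. With limma on log2(signal + 83) and Benjamini-Hochberg adjustment, 0 of the 12 tested member probe sets had an adjusted p under 0.05, against 17 of 10474 probe sets (0.162%) over the whole array. At an unadjusted limma p under 0.05 stood AcCoAS and Lsd-1, both with lower means with JH III, and SREBP, with a higher mean. Those are 2 lower of 12, where 3.75% of all tested probe sets were lower at that level, and 1 higher, where 3.54% were. By the methods' t-test, run on the same log2 values, 0 of the 12 had an unadjusted p under 0.05. In 3 of the 12 both JH III arrays lay below both acetone arrays (FASN1, AcCoAS and Lsd-1), against 15.3% over all tested probe sets, and in 1 of the 12 both lay above (SREBP), against 22.2%. The median log2 difference, JH III minus acetone, was -0.08 over the members (range -0.91 to 1.32) and 0.10 over all tested probe sets.

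**Figure D1:**
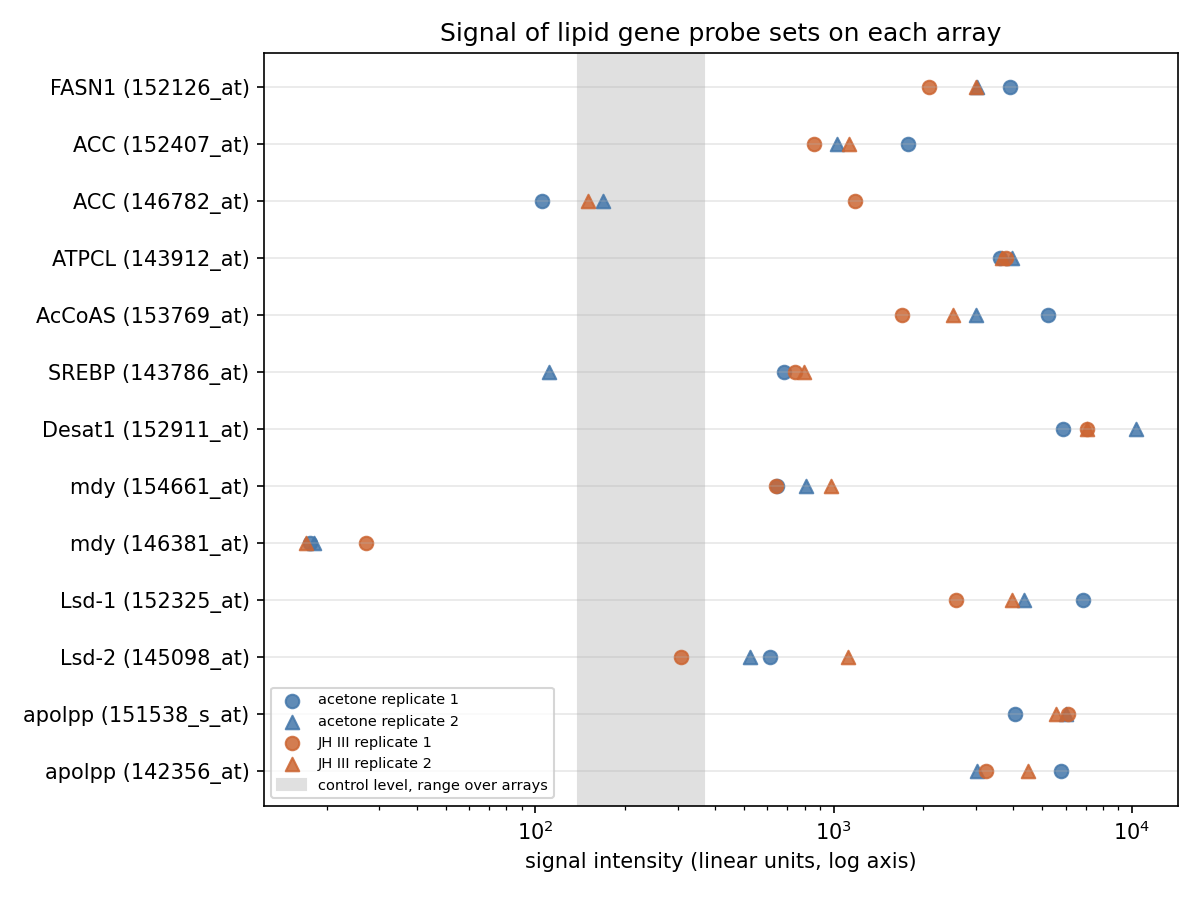
Signal of each of the 13 probe sets on each array, in linear intensity units on a log axis, with acetone in blue, JH III in orange, circles for replicate 1 and triangles for replicate 2. The grey band spans the control levels of the 4 arrays, from 139 to 369. SREBP had 1 low array, acetone replicate 2, and the second ACC probe set had 1 high array, JH III replicate 1.

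AcCoAS, the acetyl-CoA synthetase that activates acetate, had the lowest difference among the members. Its signal was 5225 and 3009 in the acetone arrays and 1698 and 2511 in the JH III arrays. Both JH III values lay below both acetone values, yet the acetone arrays differed from each other by 0.78 on the log2 scale. The means were 4117 ± 1567 and 2105 ± 575 (SD, n = 2 each). On the log2 scale they differed by -0.91 ± 0.36 (SE, limma adjusted p = 0.529, unadjusted p = 0.0129). The difference was -0.53 without acetone replicate 1 and -1.30 without acetone replicate 2.

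FASN1, the main fatty acid synthase, ran in the same order of arrays as AcCoAS. It measured 3916 and 3023 in acetone and 2088 and 2999 with JH III. The groups did not overlap, but the gap between them was narrow, since acetone replicate 2 and JH III replicate 2 were 3023 and 2999. The log2 difference was -0.45 with a 95% interval of -1.15 to 0.26 (limma adjusted p = 0.811). It was -0.26 without acetone replicate 1, -0.19 without JH III replicate 1 and -0.70 without JH III replicate 2.

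ACC, the acetyl-CoA carboxylase that makes malonyl-CoA, was read by a pair of probe sets that did not run alike. The brighter probe set gave 1771 and 1029 in acetone and 861 and 1127 with JH III. Its groups overlapped, and the log2 difference was -0.43 ± 0.41 (SE, limma adjusted p = 0.848). The other probe set gave 105 and 168 in acetone and 1180 and 150 with JH III. Only JH III replicate 1 was above the control level there. The log2 difference of 1.32 ± 0.73 (SE, limma adjusted p = 0.748) was 0.10 without that array. The ratio of the brighter to the dimmer probe set was 16.9 and 6.12 in acetone and 0.729 and 7.50 with JH III, the lowest value being JH III replicate 1 and the highest acetone replicate 1.

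ATPCL, the ATP citrate lyase that splits exported citrate into acetyl-CoA, was nearly level across the arrays. Its signal was 3617 and 3950 in acetone and 3772 and 3670 with JH III, the JH III values lying between the acetone values. The log2 difference was -0.022, with a 95% interval of -0.71 to 0.67 (limma adjusted p = 0.992). The interval leaves room for differences of that size in either direction. Among the tested members ATPCL was the most even, with replicate gaps of 0.12 in acetone and 0.039 with JH III on the log2 scale.

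Desat1, the stearoyl-CoA desaturase that also makes precursors of cuticular pheromones, had 5883 and 10317 in acetone and 7064 and 7055 with JH III. The JH III arrays were nearly equal and lay between the acetone arrays, which spanned 0.80 on the log2 scale. The log2 difference was -0.14 (95% interval -0.86 to 0.58, limma adjusted p = 0.948).

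SREBP rested on 1 acetone array. Its signal was 681 and 111 in acetone and 741 and 798 with JH III. Acetone replicate 2, at 111, was under that array's control level of 295, and the remaining 3 values were within 681 to 798. The log2 difference was 1.15 ± 0.57 (SE, limma adjusted p = 0.675, unadjusted p = 0.0465). Without acetone replicate 2 it was 0.16, and without acetone replicate 1 it was 2.14. The list fixed for the pathway also holds the partners that release SREBP from the membrane. These are SCAP, its escort, and S1P, the protease that makes the first cleavage, both named here after their values were seen. For SCAP the signals were 302 and 310 in acetone and 211 and 311 with JH III, with overlapping groups and a log2 difference of -0.19 (limma adjusted p = 0.962), and JH III replicate 1 was under the control level. For S1P they were 12.5 and 275 in acetone and 321 and 125 with JH III, not well above background on any array, so that no difference is given.

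For mdy, the diacylglycerol acyltransferase known from a fly mutant with arrested egg chambers, the brighter probe set gave 648 and 807 in acetone and 643 and 982 with JH III. The groups overlapped, and the log2 difference was 0.13 ± 0.46 (SE, limma adjusted p = 0.963), with a negative sign after quantile normalization and median centring. The other mdy probe set lay between 17.0 and 27.0, was not well above background on any array and was below the filter, so it was not tested. It is the 1 member probe set of 13 without a test.

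**Figure D2:**
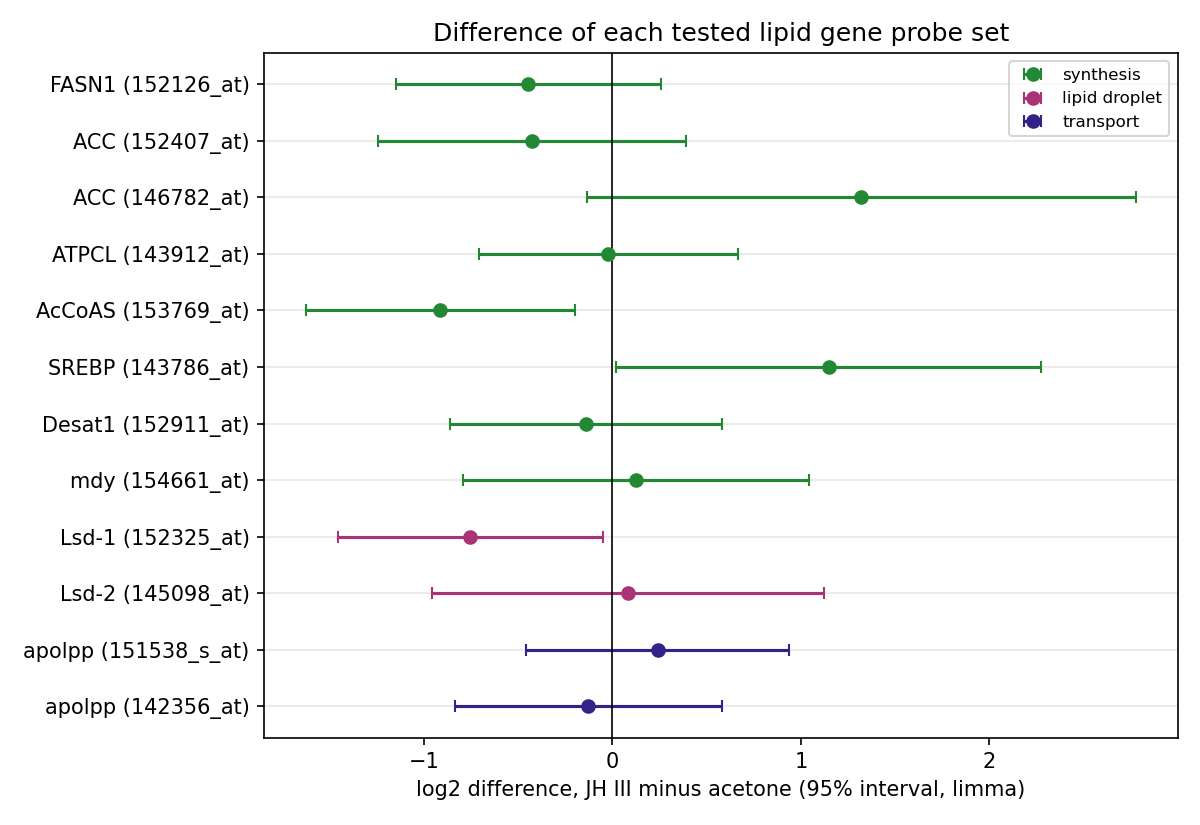
Log2 difference, JH III minus acetone, for each of the 12 tested probe sets, with its 95% interval from limma, coloured by role. The unadjusted intervals of AcCoAS, SREBP and Lsd-1 exclude 0 and the other 9 include it.

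The perilipins of the lipid droplet differed in their values. Lsd-1, which recruits lipases when hormones call for fat, had 6839 and 4360 in acetone and 2580 and 3976 with JH III. Both JH III arrays were lower than both acetone arrays, and the gaps between replicates, 0.64 and 0.61 on the log2 scale, were close to the difference itself. The means were 5600 ± 1753 and 3278 ± 987 (SD, n = 2 each). On the log2 scale they differed by -0.75 ± 0.35 (SE, limma adjusted p = 0.649, unadjusted p = 0.036). It was -0.43 without acetone replicate 1 and -0.45 without JH III replicate 1.

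Lsd-2, which shields stored fat from lipases, had 610 and 524 in acetone and 309 and 1121 with JH III. The JH III arrays lay on either side of the acetone arrays, and JH III replicate 1 was under that array's control level. The log2 difference was 0.083 (95% interval -0.96 to 1.12, limma adjusted p = 0.980). It was 0.89 without JH III replicate 1 and -0.73 without JH III replicate 2, and it was negative after quantile normalization or median centring. Whether Lsd-1 and Lsd-2 differed in their response was not tested.

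The apolpp probe sets had differences of opposite sign. The brighter probe set read 4039 and 6018 in acetone and 6115 and 5566 with JH III, a log2 difference of 0.24 (95% interval -0.46 to 0.94, limma adjusted p = 0.907). The other read 5778 and 3022 in acetone and 3251 and 4485 with JH III, a log2 difference of -0.13 (95% interval -0.84 to 0.58, limma adjusted p = 0.951). In both the groups overlapped. The ratio of the brighter to the other was 0.699 and 1.99 in acetone and 1.88 and 1.24 with JH III, and the JH III ratios lay between the acetone ratios. The lowest and the highest ratio were both from acetone arrays.

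**Figure D3:**
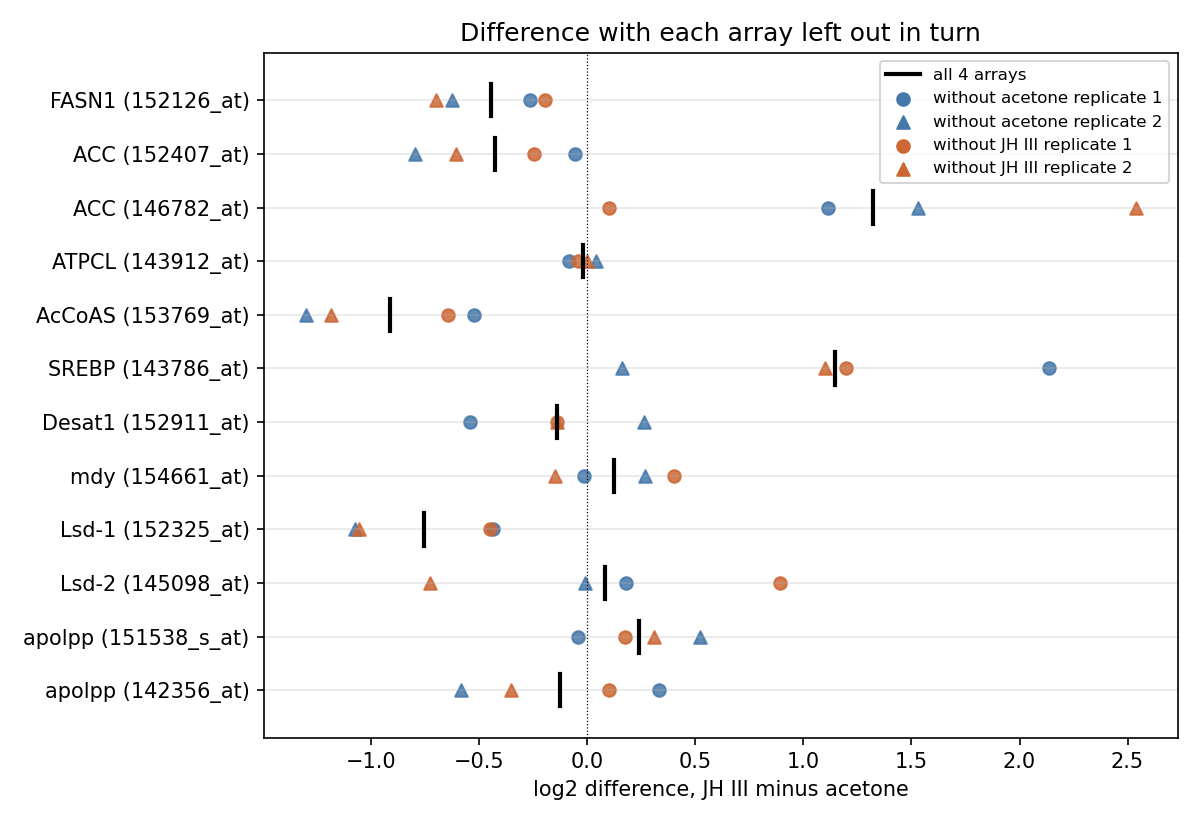
Log2 difference, JH III minus acetone, of each tested probe set with all 4 arrays (black bar) and with each array left out in turn (blue for acetone, orange for JH III, circles for replicate 1, triangles for replicate 2). SREBP ran from 0.16 to 2.14 and the dimmer ACC probe set from 0.10 to 2.54, while ATPCL stayed between -0.084 and 0.04.

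The gaps between replicate arrays were set beside the differences between group means. In 8 of the 12 tested probe sets the difference between group means was smaller than the gap between the acetone arrays, and in 10 it was smaller than the larger of the replicate gaps. AcCoAS and Lsd-1 are the exceptions. The same shares over all tested probe sets were not computed. A gap between single arrays also varies more than a difference between means of 2 arrays. These counts therefore do not set the members apart from other genes. FASN1, AcCoAS and Lsd-1 followed the order acetone replicate 1, acetone replicate 2, JH III replicate 2, JH III replicate 1 from high to low, which is the order of the GAPDH ratio. That order was found in 3 of the 12 member probe sets (25%) and in 5.55% of all tested probe sets. JH III replicate 1 was the lowest array in 6 of the 12 (50%) and in 27.8% of all. The part of the GAPDH ratio or of JH III replicate 1 in these results was not tested.

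**Figure D4:**
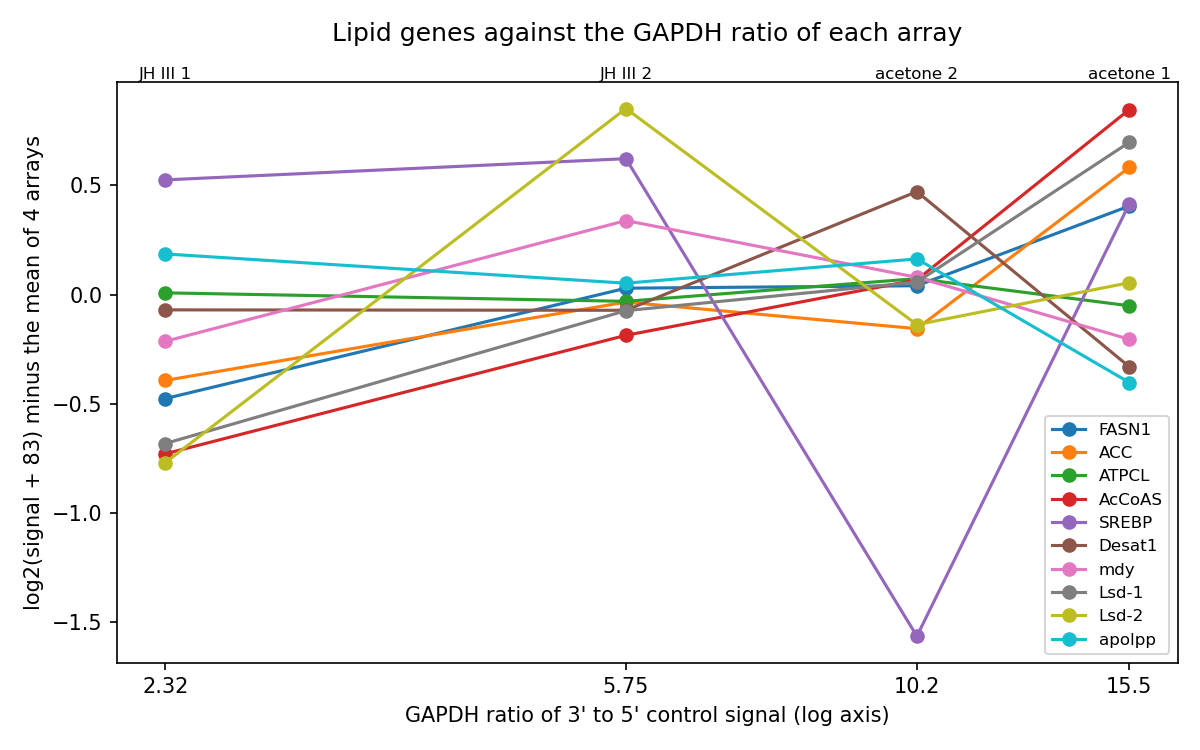
Log2(signal + 83) of each gene's brighter probe set, minus its mean over the 4 arrays, against the GAPDH ratio of 3' to 5' control signal of each array on a log axis. FASN1, AcCoAS and Lsd-1 rise from JH III replicate 1, at a ratio of 2.32, to acetone replicate 1, at 15.5, and SREBP has its 1 low point in acetone replicate 2, at 10.2.

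In whole flies, fewer cells of a type and less RNA per cell cannot be told apart. The summed signal of 6 measured fat body markers of 9 planned was 97700 and 78960 in acetone and 54950 and 97440 with JH III, nearly all of it from the yolk proteins Yp1 to Yp3, and lowest in JH III replicate 1. None of the 6 was at 0, 4 exceeded the control level on every array and 1, Fbp2, on none. Lsp2, a storage protein of the fat body, had 319 and 471 in acetone and 748 and 382 with JH III, the highest value being JH III replicate 1. Fbp1 had 133 and 590 in acetone and 251 and 557 with JH III. Fbp2 had 17.7 and 42.1 in acetone and 92.8 and 76.9 with JH III. The sum therefore describes mainly the yolk protein genes, and the other fat body markers did not share its order of arrays. For 4 muscle markers of 5 planned the sum was 10620 and 7051 in acetone and 4028 and 6923 with JH III, and all 4 exceeded the control level on every array. The sum ran in the order of the GAPDH ratio, but none of the 4 summed probe sets did so alone. In each of them the groups overlapped, and their log2 differences ran from -1.24 (Prm) to -0.42 (Act88F). A dimmer probe set of the marker up, left out of the sum, gave 633 and 818 in acetone and 64.0 and 302 with JH III. There both JH III arrays lay below both acetone arrays, as in 15.3% of all tested probe sets. For 3 oenocyte markers, from the cells that make cuticular hydrocarbons, it was 73120 and 140900 in acetone and 139500 and 131100 with JH III, most of it Cyp4g1. Cyp4g1 was lowest in acetone replicate 1, at 63590. The other markers, eloF and Fad2, were instead highest on that array, at 4320 and 5209. Both are also on the pathway list and are named here after their values were seen. For 8 ovary markers of 10 planned it was 16670 and 12110 in acetone and 11120 and 18430 with JH III, most of it Vm26Aa and osk. Of the 8, 3 exceeded the control level on every array. Both JH III arrays lay below both acetone arrays in 1, Cp16, against 15.3% of all tested probe sets. They lay above both in 2, bcd and otu, against 22.2%. The part of these cell types in the results was not tested.

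The other genes of the pathway gave no call either. A list of 66 genes of synthesis, droplets and lipolysis, transport and fatty acid oxidation, the 10 members among them, had 55 with a probe set of their own and 54 tested. With the brighter probe set of each gene, limma called 0 over all probe sets, where 0.162% of the array was called. At an unadjusted p under 0.05 stood 5 lower and 2 higher of the 54, where 3.75% and 3.54% of all tested probe sets stood. They were the members AcCoAS, Lsd-1 and SREBP and 4 others. In 10 of the 54 both JH III arrays were below both acetone arrays, where 15.3% of all tested probe sets were, and in 3 both were above, where 22.2% were. Men, the malic enzyme, and Agpat3, an acyltransferase, are among the 10 by their brighter probe sets (-0.51 and -0.67), while another probe set of each separated the groups the opposite way (0.46 and 0.76). Both were named after their values were seen. The median log2 difference of the 54 was -0.20, with 39 below the acetone level, against a median of 0.10 over all tested probe sets and 43.9% of them below. JH III replicate 1 was the lowest array in 30 of the 54 (55.6%), against 27.8% of all tested probe sets. Without JH III replicate 1 the list's median was -0.020, with 28 below.

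LpR2, a lipophorin receptor through which tissues such as the ovary take up lipid, had the largest fitted difference on the list. Its signal was 82.6 and 105 in acetone, under the control level on both arrays, and 586 and 582 with JH III, above it on both. With each acetone value raised to its array's control level, the ratio of JH III to acetone signal was 2.88. That ratio is a point value, for which no interval or test was run. The fitted log2 difference for LpR2 was 1.92 ± 0.70 (SE, limma adjusted p = 0.476, unadjusted p = 0.00775). The size of this log2 difference rests on acetone values that were not well above background. LpR2 also passed the signal filter only through its JH III arrays. Its acetone mean was 93.9, and a SCAP probe set with means of 113 and 112 was filtered out. The p-values of LpR2 are therefore given as a description only. A dimmer LpR2 probe set was under the control level on all arrays, at 20.5 and 39.9 in acetone and 109 and 18.0 with JH III. The related receptor LpR1, named after its values were seen, had 748 and 543 in acetone and 86.5 and 834 with JH III on its brightest probe set, with overlapping groups. The value of 86.5, in JH III replicate 1, was under that array's control level of 369. Its dimmer probe sets were under the control level on all arrays.

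Among genes of fatty acid oxidation, 9 of 10 tested had lower means with JH III, where 43.9% of all tested probe sets did. Mtpbeta and scu were lower at an unadjusted p under 0.05, where 3.75% of all were. Mtpbeta, a subunit of the mitochondrial trifunctional protein, gave 1823 and 1056 in acetone and 208 and 914 with JH III, the first of these under the control level. Its log2 difference of -1.45 ± 0.48 (SE, limma adjusted p = 0.327) was -0.56 without JH III replicate 1 and -2.34 without JH III replicate 2. Scu, a mitochondrial hydroxyacyl-CoA dehydrogenase, gave 4121 and 2501 in acetone and 1198 and 1751 with JH III, and the log2 values differed by -1.10 ± 0.37 (SE, limma adjusted p = 0.335). Both ran in the order of the GAPDH ratio. The group's median was -0.33, and in 3 of the 10 both JH III arrays lay below both acetone arrays, against 15.3% of all tested probe sets. JH III replicate 1 was the lowest array in most of the 10, Mtpbeta and scu among them. The group's median and its count of lower means without that array were not computed.

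The 20 tested synthesis genes that are not members had a median of -0.19, with 14 below the acetone level, where 43.9% of all tested probe sets were. The 1 with an unadjusted p under 0.05 was sug, a zinc finger factor that responds to dietary sugar, at 1446 and 1729 in acetone and 390 and 1435 with JH III. The second JH III array was close to the acetone arrays, and the log2 difference of -0.97 ± 0.43 (SE, limma adjusted p = 0.636) was -0.13 without JH III replicate 1. FASN2, the fatty acid synthase that is a close relative of FASN1, and the triglyceride lipase bmm are named here after their values were seen. FASN2 had 3076 and 2413 in acetone and 1697 and 2652 with JH III, a log2 difference of -0.35 (limma adjusted p = 0.853). For bmm the signals were 1884 and 1112 in acetone and 1085 and 1176 with JH III, a log2 difference of -0.34 (limma adjusted p = 0.877). In both the groups overlapped. The 8 other droplet and lipolysis genes had a median of -0.13 with 0 at an unadjusted p under 0.05, and in none of the 8 did the groups separate. Of all tested probe sets, 3.75% were lower and 3.54% higher at that p. The groups separated as lower in 15.3% of all and as higher in 22.2%.

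**Figure D5:**
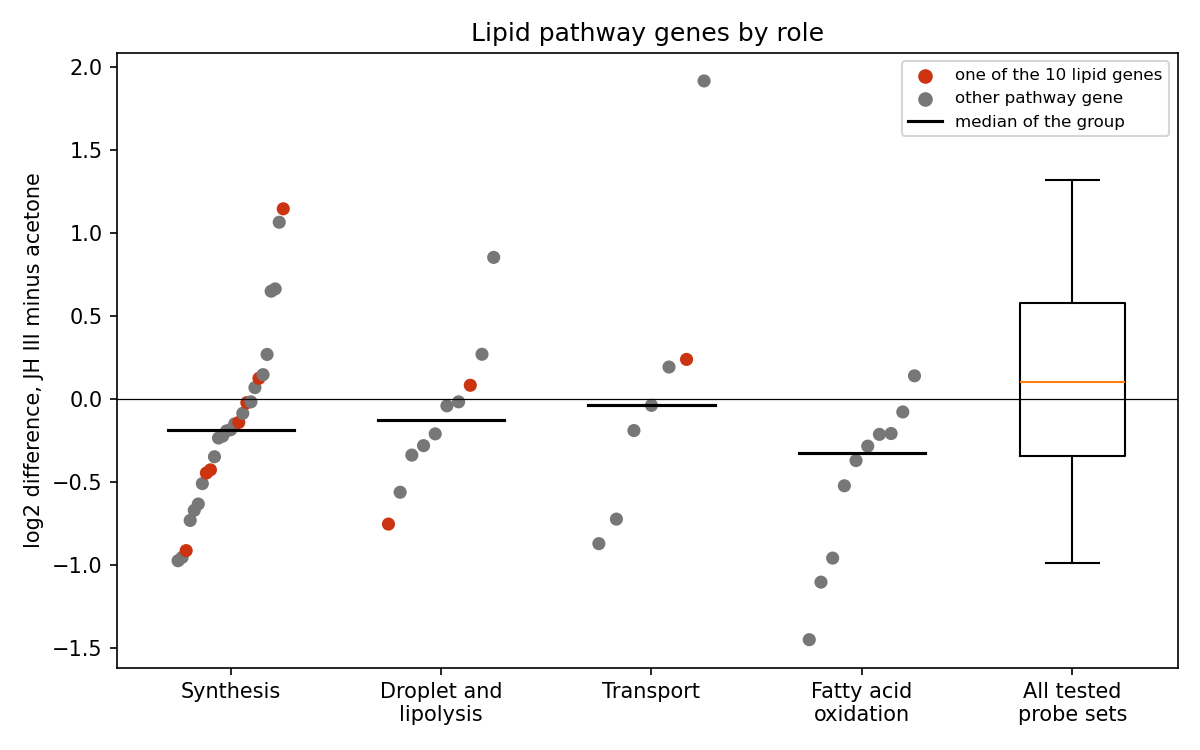
Log2 difference, JH III minus acetone, of the 54 tested genes of the pathway list by role, with the 10 genes described above in red, other genes in grey and the median of each role as a black line. The box at the right shows all 10474 tested probe sets, with its line at the median of 0.10, its edges at the quartiles of -0.34 and 0.58 and whiskers at percentiles 5 and 95, -0.99 and 1.32. The point at 1.92 among the transport genes is LpR2, whose acetone arrays were under the control level.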

How the data were processed

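The deposited values are 1 linear signal intensity per probe set and array, already scaled by the authors, as the 2% trimmed mean was 500.1 on every array. The sources used here give neither the software that summarised the probes nor a genome build, so no coordinates are printed. Per the labels, Trizol and chloroform were used for extraction and biotin as the label. Of 14010 probe sets 44 were controls. Of the rest, 12443 had 1 gene symbol, 327 several and 1196 none, and 12394 matched a RefSeq gene table through their Entrez numbers, with 0 symbols changed.

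A filter removed the 25% of probe sets with the lowest mean signal over all 4 arrays. The remaining 10474 were tested as log2(signal + 83), 83 being the 25th percentile of all values, which understates differences at low signal. limma 3.58.1 in R 4.3.3 (lmFit, eBayes with a trend, two-sided) was run with Benjamini-Hochberg adjustment over all of them and a threshold of 0.05. Each probe set brought 2 degrees of freedom, which moderation by limma raised to 67.4. SDs are over 2 arrays per group. With that moderation, limma's SEs, intervals and p-values rest mostly on a spread shared over probe sets, and less on a gene's own arrays. From its own arrays, by the t-test, the SE was 0.065 for ATPCL and 0.991 for SREBP. The limma SEs were 0.345 and 0.566. The labels give separate pools but not separate cultures, so p-values speak at most for pools such as these.

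The members and lists were chosen with earlier results of these data known. Named genes are all members, and the other pathway genes with an unadjusted p under 0.05 and groups that did not overlap (up to 12). Other genes named after their values were seen are said to be so. Of the 66 pathway genes, 11 had no probe set naming them alone. Figures were drawn with Python 3.11.15 and matplotlib 3.10.9.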

Additional observations from a re-analysis of the deposited data

How the results depend on the processing

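Under 14 other settings, 0 of the 10 lipid genes and 0 of the tested pathway genes were called by limma or by the methods' t-test. These were a pseudocount of 1 or 256, quantile normalization, median centring, no filter or a filter of 50%, no trend in eBayes, the t-test, a replicate block, chip lot as a block and each array left out. The whole array had 17 calls, and 2 with quantile normalization, median centring, no filter, a filter of 50% or the replicate block, 0 with no trend or the t-test (696 and 606 at an unadjusted p under 0.05), 4 with chip lot as a block, and 4 to 30 with an array left out. The other pseudocounts gave 13 and 12. Median centring moved the median of all tested probe sets from 0.10 to -0.14 and that of the pathway list from -0.20 to -0.44. Averaging all probe sets of a gene it was -0.17. With an array left out the list's median ran from -0.41 to -0.020. All settings reuse the same arrays, so a p under 0.05 in several of them is not separate support. With an array left out, the arm of 1 array is assumed to vary like the other group, and chip lot as a block gives the same differences as leaving out acetone replicate 1. With those counted separately, unadjusted p was under 0.05 in 8 of the 14 settings for AcCoAS, 6 for Lsd-1, 3 for SREBP and 13 for LpR2, whose adjusted p ran from 0.237 to 1.

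Of 168 member values under alternatives 19 changed sign, none of them past the threshold, and the cause was not tested. After quantile normalization these were ATPCL (0.31), Desat1 (0.29), mdy (-0.012), Lsd-2 (-0.077) and the dimmer apolpp probe set (0.21). After median centring they were mdy (-0.11) and Lsd-2 (-0.15). With chip lot as a block they were mdy (-0.017) and the apolpp probe sets (-0.044 and 0.33). With arrays left out the ranges were -0.084 to 0.04 for ATPCL, -0.54 to 0.26 for Desat1, -0.15 to 0.40 for mdy and -0.73 to 0.89 for Lsd-2. For apolpp they were -0.044 to 0.52 and -0.59 to 0.33. FASN1, AcCoAS, Lsd-1, SREBP and both ACC probe sets kept their sign in all 14.

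Titles number the arrays 1 and 2 in each group, but nothing says that a number marks a shared batch, and deviations of same-numbered arrays correlated at -0.11 over tested probe sets and at -0.40 over the pathway list. The replicate block left 0 members called and 2 probe sets called on the array. A crossed pairing, chosen after seeing the data, called 109 on the array, 2 of the pathway list and 0 members. Signal under the control level limits SREBP, Lsd-2, LpR1, LpR2, S1P, SCAP, Mtpbeta, the brighter Agpat3 probe set and the dimmer ACC and mdy probe sets.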

Other observations

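A probe set that names fabp, a fatty acid binding protein of the cytosol, together with sea, the mitochondrial citrate carrier that exports the substrate of ATPCL, was kept out of the lists because it names more than 1 gene. Its signal was 4904 and 3249 in acetone and 1698 and 2504 with JH III, with both JH III arrays below both acetone arrays and the order of arrays seen for AcCoAS. The log2 difference was -0.93 (limma adjusted p = 0.529, unadjusted p = 0.0113). The probe set naming fabp alone, described here after its values were seen, gave 14661 and 6020 in acetone and 4350 and 7356 with JH III, where the groups overlapped (log2 difference -0.72, limma adjusted p = 0.710).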
